A study of Mus musculus with 2 samples.

Results

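The gene set described here comprises the integrins and the genes of the basement membrane in TUBO cells. It holds every row of the count table named as an integrin alpha or beta subunit (Itga, Itgb), a laminin chain (Lama, Lamb, Lamc) or a collagen IV chain (Col4a1 to Col4a6), with Nid1, Nid2, Hspg2, Agrn, Dag1, Bcam, Col7a1, Col15a1, Col17a1 and Col18a1. This gave 54 of 31017 genes, chosen by name and not by level. TUBO is a mouse mammary cancer line derived from a tumour of a BALB/c mouse with the rat Her2/neu transgene, and the cells were untreated and grown flat on plastic. The labels give 1 group, TUBO, with 2 libraries of 35453278 counts (replicate 1) and 34098259 counts (replicate 2), so no condition was compared with another. Whether each replicate came from its own culture is not stated, and differences between the libraries may therefore be technical. The medium held serum, and the labels name no other cells, so the data describe tumour cells of 1 line on plastic.

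Integrins are receptors made of 1 alpha and 1 beta chain that bind the extracellular matrix outside the cell and, through adaptor proteins, the cytoskeleton inside it. Laminins are trimers of an alpha, a beta and a gamma chain that form the first sheet of a basement membrane on the cell surface. Collagen IV forms a further network, and nidogens and the heparan sulfate proteoglycans perlecan and agrin join the sheets to each other and to the cell. In the mammary gland, luminal cells and the myoepithelial cells around them rest on such a membrane. Invasive tumour cells cross it.

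Levels are given as CPM, the usual unit of a gene's counts relative to the total of its library, scaled with TMM factors, a correction for library composition. Detection here means at least 1 CPM in each of the libraries. Ratios and shares between genes use levels divided by the gene's exonic length, given as CPM per kilobase, unless another length is named. The lists of adaptor, ligand and other pathway genes below are ordered by CPM, without division by length. Values with an error are mean ± SD over the 2 libraries (n = 2), and no level was tested, since an exact sign test over 2 libraries cannot go below p = 0.5. The floor, which is the highest level compatible with no count (3 counts, counting error only), was 0.0842 CPM in the first library and 0.0885 CPM in the second. In bulk RNA, fewer cells with a transcript and less transcript per cell cannot be told apart.

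The labelled cell type was checked against marker lists. All 8 epithelial markers were detected, with summed levels of 5271 and 5090.2 CPM. No endothelial or myoepithelial marker of 8 each was detected, and their sums were at most 0.421 and 1.71 CPM. Of the 8 fibroblast markers Pdgfra alone was detected (6.87 and 8.40 CPM) and 6 had no count. Of the 8 leukocyte markers Cd68 alone was detected (9.51 and 9.35 CPM) and 5, including Ptprc, had no count. Of the 8 platelet markers Gp1ba alone was detected (1.15 and 1.89 CPM) and 3 had no count.

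Of the 54 genes, 35 were detected, 15 had counts but were below 1 CPM in at least 1 library, and 4 (Itga4, Itga5, Itgad and Lama1) had no count in either library. For comparison, 37.7% of all genes in the table and 50.5% of its protein-coding genes were detected. Of all genes, 41.0% had no count in either library. Of the members, 18 reached 100 CPM in each library. The median log2(CPM + 1) of the members was 3.12 in replicate 1 and 3.22 in replicate 2, against 0.12 in each over all genes. These groups differ in gene type, since the members are all protein-coding, as are 21782 of the 31017 genes. No median was computed over the protein-coding genes. The members took 0.691% and 0.681% of the counts. By family, 9 of 18 integrin alpha genes, 7 of 9 integrin beta genes, 7 of 11 laminin genes, 5 of 6 collagen IV genes and 7 of the remaining 10 were detected. The integrin alpha and laminin families each held genes above 100 CPM and genes without a count.

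**Figure D1:**
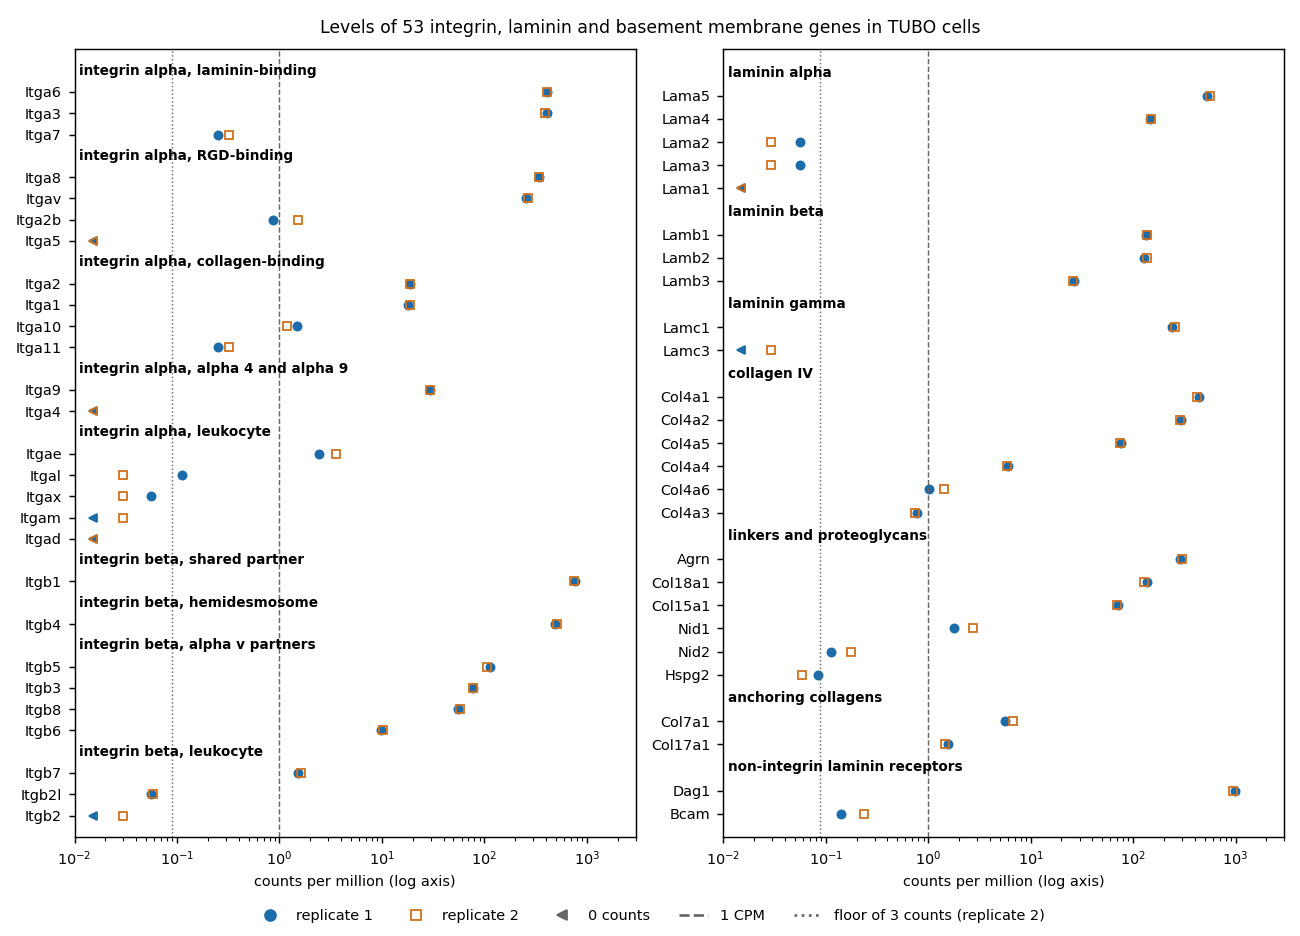
CPM (log axis) of 53 of the genes in replicate 1 (filled circles) and replicate 2 (open squares), grouped by role; triangles mark a count of 0, the dashed line 1 CPM and the dotted line the floor of 3 counts in replicate 2. In each role 1 or 2 genes carry most of the level, as Lama5 and Lama4 do among the laminin alpha chains, and Dag1 and Itgb1 lie highest of all.

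Itgb1, the beta chain shared by most matrix-binding integrins, was the most abundant integrin gene, with 27494 and 25469 counts (771 and 751 CPM; chromosome 8, 128685654 to 128733200, GRCm38). Divided by length it stood at 187 ± 3.53 CPM per kilobase, above 98.8% of all detected genes. Itgb4, whose long cytoplasmic tail anchors keratin filaments in hemidesmosomes and which pairs with the alpha 6 chain, had 17566 and 17202 counts (493 and 507 CPM; chromosome 11, 115974709 to 116008412). Per length Itgb4 reached 71.3 ± 1.45 CPM per kilobase, and it was below Itgb1 in both libraries, at 0.372 and 0.393 times its level. The order of these 2 chains held for every length definition tried.

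The laminin-binding alpha chains made up most of the alpha subunit level. Itga3, the alpha chain of the alpha 3 beta 1 receptor, had 409 and 389.9 CPM (chromosome 11, 95044474 to 95076801). Itga6, which joins either Itgb1 or Itgb4, had 407 and 412 CPM (chromosome 2, 71745616 to 71858416). Both were therefore high in each library. Itga7, the laminin receptor chain known from muscle, had 9 and 11 counts (0.252 and 0.324 CPM). Together the laminin-binding chains gave 59.3 ± 0.646% of the summed alpha level per kilobase. Which of the abundant chains was higher depended on the length used: Itga6 was 0.649 ± 0.0278 times Itga3 with the whole exonic length (a log2 ratio of -0.62 ± 0.06) but higher with the longest transcript (log2 ratio 0.21) and within the spread between libraries of it by coding length (0.00585). The annotated exons of Itga6 cover 9025 bases and its longest transcript 4310, against 5710 and 4861 for Itga3. For the same reason Itga6 was 0.637 ± 0.00727 times Itgb4 by exonic length and 1.18 ± 0.0135 times by the longest transcript.

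The second group of alpha chains recognises the RGD tripeptide of ligands such as fibronectin, vitronectin and osteopontin. Itga8, known mainly from mesenchymal cells and the developing kidney, had 12187 and 11586 counts, which is 342 CPM in each library (chromosome 2, 12106632 to 12301922). Its 46.4 ± 0.0274 CPM per kilobase lay beside the 45.4 ± 0.406 of Itga6 by exonic length, but with the longest transcript Itga8 was lower, at 58.8 against 95.03. Of its exonic bases 5.05% lie in exons of E030013I19Rik on the opposite strand, which had 786 and 725 counts. Itgav, the alpha v chain that pairs with several beta chains, had 257 and 265 CPM (chromosome 2, 83724397 to 83806916). In contrast Itga5, the fibronectin receptor chain, had 0 counts in both libraries (chromosome 15, 103344286 to 103366763). Itga2b, the platelet chain, had 31 and 52 counts (0.870 and 1.53 CPM), at the detection limit. Thus 2 of the 4 RGD-binding alpha genes were abundant and their canonical fibronectin-binding member was at the floor.

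The contrast between Itgb1 and its partner Itga5 is shown with the sequence before each start in RefSeq (build GRCm38.p6), because both genes have a promoter with CpG dinucleotides and only Itgb1 had counts. Capitals mark CG. The Itgb1 stretch is chr8:128685404-128685653 on the plus strand (250 bases, 21 CG) and the Itga5 stretch is chr15:103366792-103367041 on the minus strand (250 bases, 11 CG).
Itgb1: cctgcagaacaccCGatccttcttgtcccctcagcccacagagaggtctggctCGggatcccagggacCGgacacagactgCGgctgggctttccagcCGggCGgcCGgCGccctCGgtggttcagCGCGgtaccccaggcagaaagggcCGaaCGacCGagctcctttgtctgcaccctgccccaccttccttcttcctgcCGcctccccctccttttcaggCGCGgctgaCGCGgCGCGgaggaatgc
Itga5: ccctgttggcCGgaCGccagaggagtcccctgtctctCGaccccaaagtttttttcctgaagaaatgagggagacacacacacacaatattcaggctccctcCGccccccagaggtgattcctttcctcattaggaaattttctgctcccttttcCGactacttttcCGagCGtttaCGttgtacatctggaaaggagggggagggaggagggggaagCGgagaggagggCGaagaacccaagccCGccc

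Collagen-binding and other alpha chains were low. Itga2 (18.7 and 18.9 CPM) and Itga1 (18.0 and 18.7 CPM), neighbours on chromosome 13 with 20995 bases and no coding gene between them, had nearly equal CPM. Divided by exonic length Itga2 was higher, at 2.63 ± 0.0212 against 0.986 ± 0.0248 CPM per kilobase, and with the longest transcript at 2.64 against 1.67. Their coding lengths, 3534 and 3537 bases, are nearly equal, so by coding length they differ as little as in CPM. Itga10 had 53 and 40 counts, and 33.5% of its exonic bases also belong to Gm42957 (10 and 4 counts), so its level is uncertain. Itga11, known from fibroblasts, had 9 and 11 counts. Itga9, a receptor chain for tenascin C and osteopontin, had 29.3 and 29.7 CPM, while its closest relative Itga4 had no count. The 4 collagen-binding chains gave only 2.02 ± 0.0195% of the summed alpha level per kilobase.

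Leukocyte integrins had at most 4 counts in a library apart from a low level of 2 genes. Itgal had 4 and 1 counts, Itgax 2 and 1, Itgam 0 and 1, and Itgad none. The common leukocyte chain Itgb2 had 0 and 1 counts, and its relative Itgb2l had 2 in each library. Itgae, the alpha chain that binds the epithelial cadherin on resident T cells, had 87 and 120 counts (2.44 and 3.54 CPM), and its partner Itgb7 had 54 and 55 counts (1.51 and 1.62 CPM). Of the 8 leukocyte markers 5, including Ptprc and Cd3e, had no count in the same libraries. Cd68 had 339 and 317 counts, Csf1r 18 and 15 and Cd4 1 and 0. The source of the Itgae and Itgb7 counts was not tested. Exons of Itgam overlap those of Gm49368 over 68.7% of their bases, and Gm49368 had 0 and 1 counts.

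Among the beta chains that pair with alpha v, all 4 were detected. Itgb5 led with 113 and 107 CPM, followed by Itgb3 with 78.3 and 77.8 CPM, Itgb8 with 55.5 and 57.3 CPM and Itgb6, known as an inducible epithelial chain, with 9.82 and 10.3 CPM. Per kilobase Itgb5 made up 61.0 ± 1.15% of the sum of these 4 and Itgb3, which also serves as the partner of the platelet chain, 26.1 ± 0.507%. This order held in both libraries and with the longest transcript. The summed level of the 4 chains was 2.09 ± 0.0942 times that of Itgav by exonic length, and 1.28 ± 0.0434 times by coding length. The alpha chains able to join Itgb1 summed to 1.04 ± 0.0120 times Itgb1 by exonic length, a log2 ratio of 0.06 ± 0.02, but to a log2 ratio of 0.50 by the longest transcript and 0.54 by coding length. Of this sum Itga3 gave 36.1 ± 0.957%, Itga8 23.9 ± 0.163%, Itga6 23.4 ± 0.383% and Itgav 12.5 ± 0.351% by exonic length. With the longest transcript the order changed, to Itga6 33.7%, Itga3 29.1%, Itga8 20.9% and Itgav 13.1%. Itga5, Itga4, Itga7 and Itga11 gave next to none of it.

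**Figure D2:**
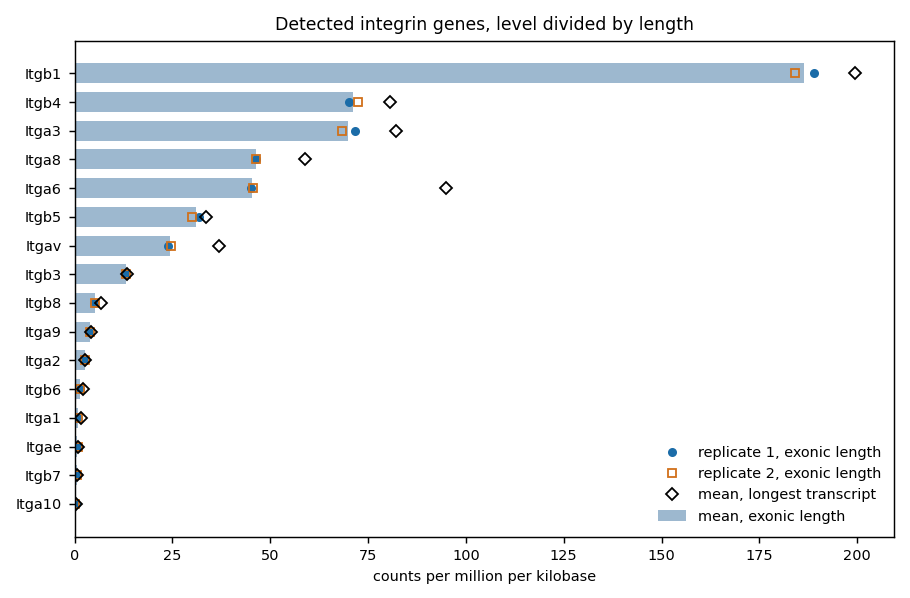
Levels of the 16 detected integrin genes in CPM per kilobase; bars are means over the 2 libraries with exonic length, circles and squares the libraries, and diamonds the means with the longest annotated transcript. Itgb1 stands apart at 187 CPM per kilobase, and the diamond of Itga6 lies farthest to the right of its bar of 45.4.

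Laminin genes of the same chain type differed widely. Lama5, the alpha chain of the main laminins of mature epithelia, had 18886 and 19200 counts (529.8 and 566 CPM; chromosome 2, 180176373 to 180225859). Lama4, known from vessels, muscle and fat, had 146 and 151 CPM (chromosome 10, 38965515 to 39110188). Lama1 had no count, and Lama2 and Lama3 had 2 and 1 counts each. The alpha level therefore came from 2 genes, with Lama5 at 3.91 ± 0.0912 times Lama4 per exonic length and 1.96 ± 0.0457 times per longest transcript. Lama4 had 5202 and 5117 counts, and the 8 endothelial markers summed to 15 and 12 counts in these libraries. The source of the Lama4 counts was not tested.

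The beta chains Lamb1 (133 and 136 CPM) and Lamb2 (128 and 137 CPM) were both present, and Lamb3, the beta chain of epidermal laminin, had 26.3 and 25.7 CPM. By exonic length Lamb2 was 1.61 ± 0.0607 times Lamb1 (log2 ratio 0.69 ± 0.05), but without division by length the log2 ratio was -0.0195 and with the longest transcript 0.0197, within the spread between libraries. Of the gamma chain genes, Lamc1, the chain of most laminins, had 241 and 256 CPM (30.1 ± 1.24 CPM per kilobase; chromosome 1, 153218922 to 153332786). Lamc3 had 0 and 1 counts.

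Lama3 and Lamb3 encode chains of the laminin that hemidesmosomes of skin and mammary basal cells attach to. In TUBO cells Lama3 had 2 and 1 counts and Lamb3 936 and 872. Lamb3 thus ranked above 30.9% of detected genes per length, and Lama3 was at the floor. Lama5 per length was 11979 times Lama3 over the pooled counts (exact 95% interval 4099 to 58088, counting error only). The 8 myoepithelial markers, which include the basal genes Krt5, Krt14 and Trp63, summed to 45 and 58 counts.

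Collagen IV genes lie in head-to-head pairs on 3 chromosomes, and the members of a pair were compared. Col4a1 had 15590 and 14237 counts (437 and 419.8 CPM) and Col4a2 had 10477 and 9692 (294 and 286 CPM), the chains of the common collagen IV trimer. Per kilobase Col4a1 was 1.32 and 1.30 times Col4a2, a log2 ratio of 0.39 ± 0.01. Their annotated ends on chromosome 8 (Col4a1 11198423 to 11312826, minus strand, and Col4a2 11312805 to 11449287, plus strand) overlap by 22 bases, so the genes start within the same stretch. Col4a5 had 75.5 and 74.1 CPM, while Col4a6, which starts 1308 bases away on the other strand of the X chromosome, had 36 and 48 counts (1.01 and 1.42 CPM). Col4a4 had 5.95 and 5.93 CPM, and Col4a3, 71 bases away on chromosome 1, had 0.786 and 0.737 CPM. Col4a1 and Col4a2 were the pair with the closest levels, and the other pairs each had a clearly higher and a lower member. Whether the distance between the starts plays a part was not tested. Col4a1 and Col4a2 together gave 50.8 ± 0.285% and 38.7 ± 0.136% of the summed collagen IV level per kilobase, and Col4a5 9.84 ± 0.106%.

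These starts are shown because the genes of each pair begin close to each other on opposite strands. The bases common to the first exons of Col4a1 and Col4a2 are chr8:11312805-11312826, written on the plus strand. For Col4a5 (chrX:141475169-141475384, plus strand) and Col4a6 (chrX:141474077-141474326, minus strand) the sequence before the first exon is given, with CG in capitals. The Col4a5 stretch holds 8 CG in 216 bases and the Col4a6 stretch 3 in 250 bases.
Col4a1 and Col4a2: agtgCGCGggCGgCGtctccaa
Col4a5: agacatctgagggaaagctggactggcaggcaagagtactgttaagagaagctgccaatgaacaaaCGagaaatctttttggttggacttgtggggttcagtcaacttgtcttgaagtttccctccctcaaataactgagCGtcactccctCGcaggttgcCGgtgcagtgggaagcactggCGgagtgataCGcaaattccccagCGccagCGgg
Col4a6: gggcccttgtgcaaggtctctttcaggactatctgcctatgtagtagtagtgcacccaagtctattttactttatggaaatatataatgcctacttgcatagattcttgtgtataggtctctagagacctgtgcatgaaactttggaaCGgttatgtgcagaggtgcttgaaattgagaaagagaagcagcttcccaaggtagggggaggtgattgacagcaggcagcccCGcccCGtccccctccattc

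The molecules that link laminin and collagen IV were uneven. Agrn, the gene of agrin, had 10132 and 10295 counts (284 and 304 CPM; chromosome 4, 156165290 to 156197488). Hspg2, the gene of perlecan, had 3 and 2 counts (chromosome 4, 137468769 to 137570630). Of the agrin and perlecan genes, 1 was thus abundant and 1 was at the floor. Over the pooled counts Agrn per length was 6295 times Hspg2 (exact 95% interval 2697 to 19389.6, counting error only), a pair chosen after its values were seen. Nid1, the nidogen that bridges laminin and collagen IV, had 64 and 93 counts (1.80 and 2.74 CPM) and Nid2 4 and 6 counts. Nid1 per length was 11.7 times Nid2 over the pooled counts (6.20 to 24.9). Of the exonic bases of Nid2, 8.45% lie in exons of Rtraf on the opposite strand. The collagens that carry endostatin-like domains were present, with Col18a1 at 135 and 127 CPM and Col15a1 at 71.9 and 69.2 CPM.

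The stretches before the starts of Agrn (chr4:156197489-156197738, minus strand, 35 CG in 250 bases) and Hspg2 (chr4:137468553-137468768, plus strand, 17 CG in 216 bases) are shown because these genes of the same role differ most in level while both have many CG dinucleotides, in capitals.
Agrn: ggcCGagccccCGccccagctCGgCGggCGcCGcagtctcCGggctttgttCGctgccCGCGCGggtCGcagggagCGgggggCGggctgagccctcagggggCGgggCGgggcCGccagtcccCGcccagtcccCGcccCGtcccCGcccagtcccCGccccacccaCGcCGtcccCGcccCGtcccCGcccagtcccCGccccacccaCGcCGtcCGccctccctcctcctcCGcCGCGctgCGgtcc
Hspg2: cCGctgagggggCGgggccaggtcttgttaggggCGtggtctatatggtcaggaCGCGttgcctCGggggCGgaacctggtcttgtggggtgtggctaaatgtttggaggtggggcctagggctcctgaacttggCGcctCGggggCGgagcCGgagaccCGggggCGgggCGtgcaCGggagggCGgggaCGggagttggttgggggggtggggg

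The anchoring collagens were low. Col7a1, which forms the anchoring fibrils below the basement membrane of skin, had 199 and 227 counts (5.58 and 6.69 CPM). Col17a1, a transmembrane collagen of hemidesmosomes, had 56 and 49 counts (1.57 and 1.44 CPM). In the same libraries the hemidesmosome linker genes Plec (244 and 272 CPM) and Dst (324 and 408 CPM) were above 100 CPM. The tetraspanin gene Cd151 (159 and 157 CPM) and Itgb4 were as well. Per kilobase Plec (14.3) and Dst (8.90) were far below Itgb4 (71.3) and Cd151 (57.7). All 8 genes of the list of hemidesmosome and tetraspanin partners were detected. By CPM the tetraspanin genes Cd81 (591 and 551 CPM) and Cd9 (509.6 and 504 CPM) were highest. Cd63 (131 and 133 CPM) and Tspan4 (44.7 and 42.5 CPM) were lowest by CPM, but per kilobase Tspan4 (20.0) was above Plec and Dst.

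Of the laminin receptors that are no integrins, Dag1, the gene of dystroglycan, was the most abundant gene of the whole set by CPM, with 35377 and 31825 counts (992 and 938 CPM; chromosome 9, 108204634 to 108263958). Per kilobase it reached 152 ± 6.02, which was 0.814 ± 0.0169 times Itgb1 by exonic length and 1.13 ± 0.0235 times by coding length. Bcam, a receptor for the laminin alpha 5 chain, had 5 and 8 counts (0.140 and 0.236 CPM). Dystroglycan binds laminin and agrin through sugar chains added in the secretory pathway. Of 18 genes of its complex and its glycosylation 17 were detected. By CPM they were led by the dystrophin relative Utrn (173 and 199 CPM), B4gat1 (59.0 and 58.8 CPM) and Pomgnt1 (54.7 and 50.6 CPM). The lowest by CPM were Pomgnt2 (11.3 CPM in each library) and Sgce, which had no count. Per kilobase Utrn (10.9) was below B4gat1 (25.5), and Dmd (0.803) was below Pomgnt2 (3.90). Of the exonic bases of B4gat1, 85.3% also belong to another annotated gene, so its level is uncertain.

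**Figure D3:**
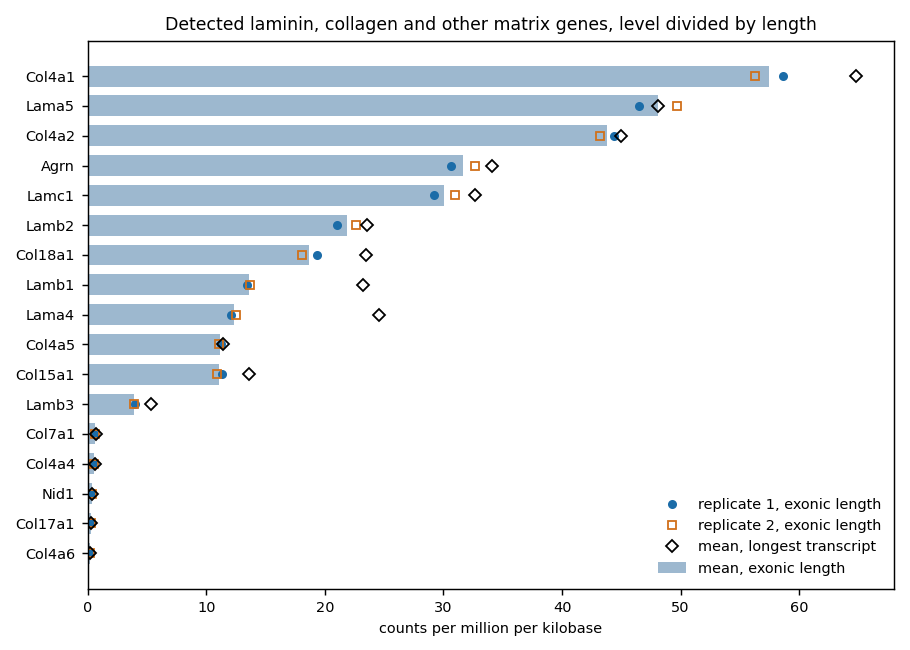
Levels of 17 detected laminin, collagen and other matrix genes in CPM per kilobase (Dag1, a receptor, is not drawn); bars are means over the 2 libraries with exonic length, circles and squares the libraries, and diamonds the means with the longest annotated transcript. Col4a1, Lama5 and Col4a2 are highest of those drawn by exonic length, and Lama4 and Lamb1 are the chains drawn that the longest transcript moves most.

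Adaptors that connect integrins with actin were broadly present. Of 30 such genes 25 were detected. Highest by CPM were Actn4 (2039 and 1925 CPM), Flna (937 and 991 CPM) and Tln1 (307 and 327 CPM). Parvb and Parvg were lowest, with 0 and 1 counts for Parvb and none for Parvg. The kindlin genes, which activate integrins with talin, were led by Fermt2 (132 and 125 CPM) over Fermt1 (39.1 and 39.2 CPM) and the blood-cell form Fermt3 (2.10 and 2.51 CPM). Ilk, the scaffold gene whose partners Lims1 (178 and 173 CPM) and Parva (228 and 229 CPM) were abundant, had 26 and 30 counts. Of the exonic bases of Ilk, 89.7% lie in exons of Taf10 or Rrp8 on the opposite strand, and Taf10 had 2645 and 2395 counts and Rrp8 1015 and 945. The strand setting of the authors' counting is not given, and its part in the low value of Ilk was not tested.

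Of 14 genes for other ligands 6 were detected. The osteopontin gene Spp1 (2972 and 2895 CPM) and the thrombospondin gene Thbs1 (694 and 686 CPM), both with RGD sequences, were followed by Cyr61 (87.0 and 88.5 CPM), while Fn1 had 31.1 and 32.7 CPM. The 5 lowest, Col1a2, Col3a1, Vcam1, Fbn1 and Nov, had no count. Of 20 genes of collagen folding and basement membrane assembly 10 were detected. Those highest by CPM were P4hb (343 CPM in each library), the collagen chaperone Serpinh1 (198 and 189 CPM) and the lysyl hydroxylase gene Plod2 (139 and 140 CPM). Pxdn, whose product crosslinks collagen IV, had 128 and 127 CPM, and Fbln1 and Smoc2 had no count.

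RefSeq promoter windows, from 250 bases before to 50 after the start, were found for 38 of the 54 genes. The CpG ratio, which sets the number of CG dinucleotides against that expected from the base content, had a median of 0.550 over 28 detected members and 0.319 over 10 members that were not detected. All genes gave 0.782 (8997 detected) and 0.250 (10410 not detected). Detected members thus lay below detected genes in general by this median. Among the members detected with few CG were Lamb3 (0.0761), Col4a6 (0.172) and Lamb2 (0.276), and Hspg2 (0.877) and Bcam (0.744) were near the floor with many. Spearman's rho between the CpG ratio and the mean CPM was 0.61 over the 38 members and 0.63 over 19407 genes, given as a description across genes, which are not independent. The motif GGGCGG, searched on both strands, was present in 57.1% of the windows of detected members (16 of 28) and in 66.3% of those of all detected genes. For genes that were not detected it was present in 6 of 10 members and in 23.8% of all, and 35.7% of all 32851 windows of this length held the motif.

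**Figure D4:**
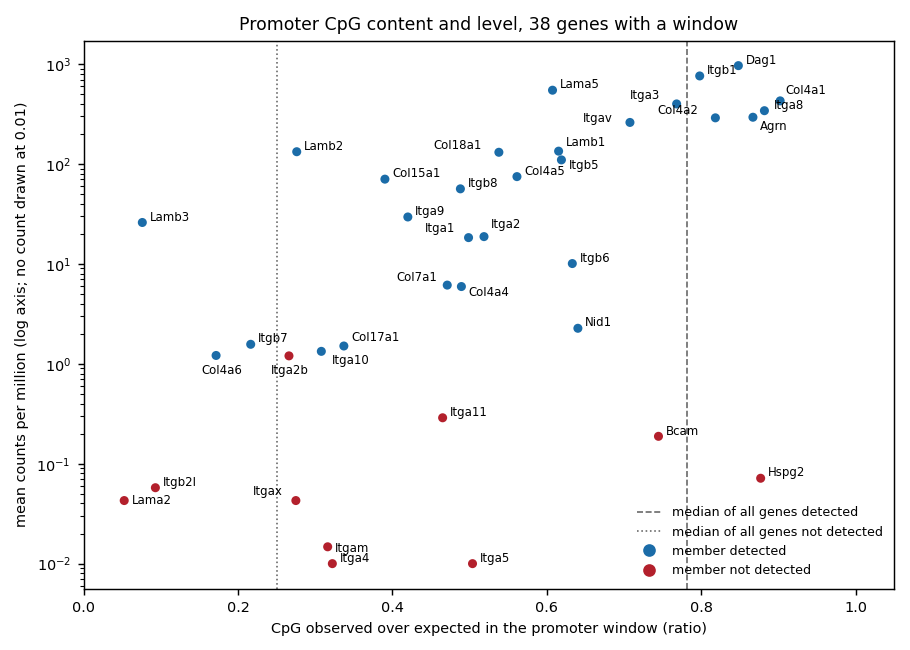
Mean CPM (log axis, genes without a count drawn at 0.01) against the CpG ratio of the promoter window for 38 members; blue points were detected, red points were not, and the vertical lines are the medians of all detected (dashed) and all undetected genes (dotted). Hspg2 and Bcam combine a high ratio with a level below 1 CPM, and Lamb3 and Lamb2 a low ratio with a detected level.

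The libraries were also compared with each other. Of the 54 genes 37 passed the filter on low counts, among them 2 that were not detected by the rule above. A two-sided exact binomial test of replicate 2 against replicate 1, which compares these libraries on counting error alone, called 10 of the 37 at a Benjamini-Hochberg adjusted p under 0.05, against 8.13% of all 13336 genes tested. All 10 were among the 18 members at 100 CPM or more, where 28.1% of all genes were called. Lama5 (log2 ratio 0.10, adjusted p = 1.19e-08 by the exact binomial test), Agrn (0.09), Lamb2 (0.10) and Lamc1 (0.08) were higher in replicate 2. The 6 called lower included Dag1 (-0.08, adjusted p = 6.28e-11 by the same exact test), Itga3 (-0.07), Col4a1 (-0.06), Col18a1 (-0.10) and Itgb1 (-0.04). Over all genes tested, 3.67% were called higher and 4.46% lower in replicate 2. The largest difference of a called member was 0.102 on the log2 scale, for Lamb2. With upper-quartile factors the members' split was 5 higher and 5 lower, and with total counts 4 and 7. Itgb1 was not called with upper-quartile factors, and Itgb4 was. Of all called genes, 45.1% were higher in replicate 2 with TMM factors, 28.9% with total counts and 49.7% with upper-quartile factors. Genes of the pathway lists called by the same exact test included Dst (log2 ratio 0.33), Utrn (0.20), Plec (0.16), Tln1 (0.09) and Flna (0.08), higher in replicate 2, and Rsu1 (-0.16), Actn1 (-0.11), Cd81 (-0.10), Actn4 (-0.08) and Spp1 (-0.04), lower. The dispersion that edgeR's exact test needs could be estimated only from these same 2 libraries treated as replicates, which builds their difference into the noise and leaves few calls to be made. That test called 0 of the 37 members, 3 of them at an unadjusted p under 0.05, and 0.142% of all genes tested. The longest transcripts of the 4 members called higher had a median of 8117 bases and those of the 6 called lower a median of 5379.5 bases. Spearman's rho between the log2 ratio and the length of the longest transcript was 0.00313 over 13193 genes and 0.202 over the 37 members, as a description across genes.

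**Figure D5:**
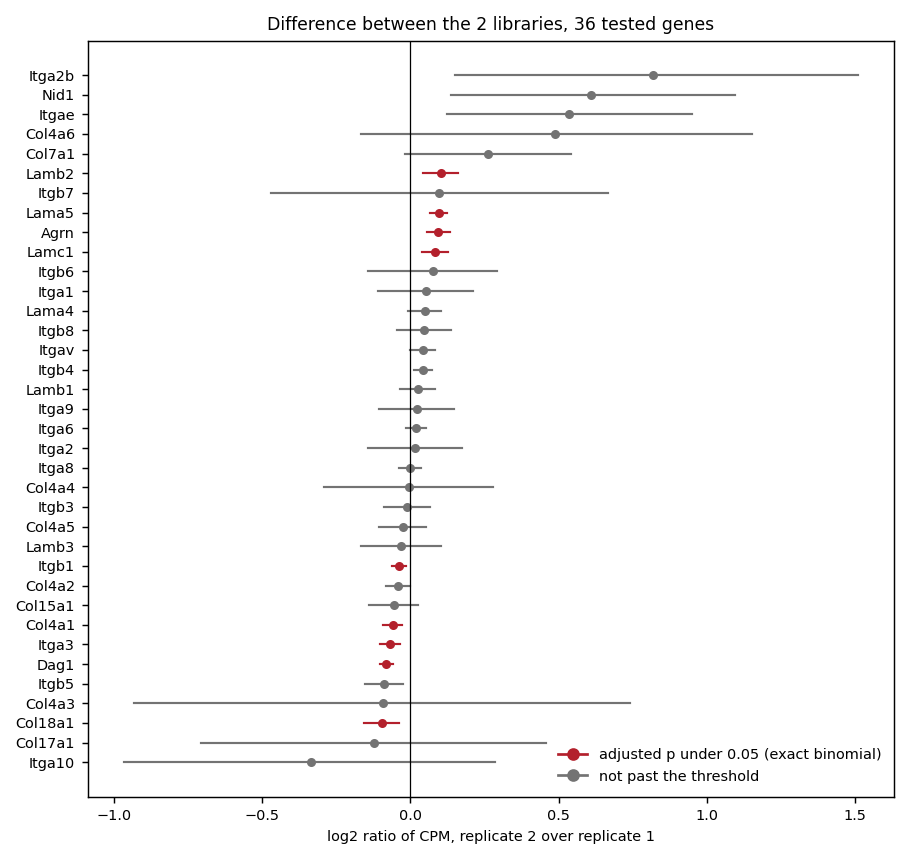
Log2 ratio of CPM in replicate 2 to replicate 1 for 36 of the tested members, with exact 95% binomial intervals that cover counting error only; red marks an adjusted p under 0.05. The called gene farthest from 0 is Lamb2, at 0.102, and the widest intervals belong to genes with few counts, such as Col4a3, Itga2b and Col4a6.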

How the data were processed

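The 2 TUBO libraries were prepared with a stranded mRNA kit from RNA treated with DNase, per the labels' protocols. The authors deposited raw counts per gene symbol. The submitters' processing notes list, without saying what each was used for, the build mm10 and the tools STAR 2.7.9a, featureCounts, FastQC 0.11.9, Cell Ranger 3.0.0 and R 4.1.1. Which annotation and which strand setting were used, and how reads matching several genes were handled, is not stated, so counts of overlapping or similar genes are uncertain.

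Columns were assigned to samples by the replicate number in the labels. Counts were scaled with TMM factors in edgeR 4.0.16 (R 4.3.3). Positions and lengths came from GENCODE M21 (GRCm38), where all 54 members had a single match by symbol. The main length is the union of all annotated exons. Shares of exonic bases in other genes were computed on both strands, and 3 members (Itgam, Itga10 and Itgad) shared over 10% of their 50-base transcript windows with other genes. Promoter sequences are RefSeq's (GRCm38.p6), and the first listed start of a gene was used. Printed stretches leave out annotated exons, except for the bases shared by Col4a1 and Col4a2.

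filterByExpr kept 13336 genes with 99.95% of the counts. Their counts in the libraries were compared by exact binomial tests, with the expected share set by the TMM-scaled totals and Benjamini-Hochberg adjustment over these genes. On libraries simulated from the real means with counting noise alone, this test called 0 of 13336 genes. It recovered 79% of 200 genes given a 1.5-fold change and 88% of 200 given a 2-fold change. In these runs 7 and 6 unchanged genes were called. Counting noise is the noise the test assumes, so the simulation checks the computation and not how the test behaves on real libraries.

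The members, 5 pathway lists, 6 marker lists and tests were chosen with earlier results of these data known. Some genes and the ratios that need them enter the counts of genes and the fits but are not reported here. Of each pathway list the 3 highest genes by mean CPM, the 2 lowest and those called between libraries are named, apart from these, and others (Ilk and its partners, kindlins, Pxdn, Fn1 and Cd151) were picked with their values in view, as were the promoters of Itgb1, Itga5, Agrn, Hspg2, Col4a5 and Col4a6. Protein sequences were not used here. Alternatives were total counts, DESeq2 1.42.0 size factors, upper-quartile factors, other detection minimums, no filter, other lengths and each library left out. The background at 100 CPM, the omission of overlapping members and totals without Gm26917 and Gm42418 were added after seeing the data.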

Additional observations from a re-analysis of the deposited data

How the results depend on the processing

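The number of detected members was 35 with each scaling, 37 at 0.5 CPM, 29 at 5 CPM, 34 without members of which over 10% of the exonic bases lie in another gene, and 35 to 36 with 1 library left out. Members without a count numbered 4 and, with replicate 1 alone, 7 (range 4 to 7). The exact binomial test called 10 to 11 members under each scaling and without the filter, and edgeR's exact test, with a dispersion from the same libraries, 0. The called members were not the same under each scaling. By the exact binomial test with upper-quartile factors, Itgb1 was not called (adjusted p = 0.0641) and Itgb4 was (adjusted p = 0.0444). With total counts Itgb5 was called as well (adjusted p = 0.0232, same test).

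Ratios of genes depended on length (log2 values, first with the longest transcript, then with coding length, then without division by length). Itga6 over Itga3 was 0.21, 0.00585 and 0.0366, with -0.67 to -0.58 over the libraries. The first value is a reversal, and the other values differ from 0 by less than the SD between libraries (0.0618). Lamb2 over Lamb1 was 0.0197, 0.00834 and -0.0195 (0.65 to 0.72 over the libraries). Each of these values differs from 0 by less than the SD between libraries (0.0544). Itgb4 over Itgb1 was -1.31, -1.79 and -0.61 (libraries -1.43 to -1.35). Col4a1 over Col4a2 was 0.53, 0.60 and 0.56 (libraries 0.38 to 0.40), and Nid1 over Nid2 3.66, 4.15 and 3.98 (libraries 3.53 to 3.58). The Itgb1 partners over Itgb1 were 0.50, 0.54 and 0.96 (libraries 0.04 to 0.07). Lama5 over Lama3 stayed within the spread between libraries under each length (libraries 13.12 to 14.14), but rests on 3 counts of Lama3. These changes follow from the lengths used. Leaving Gm26917 and Gm42418 out of the totals raised every detected member's CPM by a factor of 1.12. Ratios to genes with few counts, such as Lama3 and Hspg2, are known only within the wide counting intervals given. No paired analysis was possible because there is 1 group.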
